A study of Rattus norvegicus with 69 samples.

Results

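The response of the rat hippocampal CA1 region to sleep deprivation was compared between 2 cohorts of animals, by asking of every probe set whether the difference between sleep-deprived (SD) and home cage (HC) animals was the same in cohort 1 as in cohort 2. All SD and HC arrays of both cohorts were taken, 53 of the 69 arrays of the series, and 21 of them belonged to cohort 1 and 32 to cohort 2. Cohort 1 held 8 rats deprived for 24 hours (24SD), 8 deprived for 72 hours (72SD) and 5 HC rats, and cohort 2 held 8 24SD, 12 72SD and 12 HC rats. The quantity compared, called the interaction here, was the mean of the 24SD and 72SD levels minus the HC level in cohort 1, minus the same difference in cohort 2, on the log2 scale. An interaction above 0 means that SD minus HC was more positive in cohort 1 than in cohort 2, and an interaction below 0 that it was more negative.

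All animals were young male rats of the labelled strain Fisher 344, an inbred laboratory strain, and each CA1 sample came from 1 animal and was hybridized to 1 Affymetrix array. SD animals spent the deprivation period with their cage mate on small platforms over water, where the loss of muscle tone in sleep brings the animal into contact with the water, while HC animals stayed in their cages. The labels do not say which animals shared a chamber, so every p-value below treats animals as independent. Before deprivation, the SD and HC animals of cohort 1 were trained on an active avoidance task, whereas cohort 2 is not named among the trained. Cohort, training and array processing therefore cannot be told apart. The remaining 16 arrays, all in cohort 1, came from rats in the same chambers with a grid over the platforms on which they could sleep (labelled NES). They were not part of the comparison and are given beside it as levels only, because they share the 5 HC arrays of cohort 1.

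CA1 is the output field of the hippocampus, with a dense layer of pyramidal neurons on which memory of places and events depends, and lost sleep is known to disturb synaptic plasticity there. Prolonged wakefulness in rodents is known to alter clock genes, activity-induced transcription factors, protein folding and energy metabolism in the forebrain. A response measured in a pooled fit of 2 cohorts can be an average of unlike responses, and the interaction asks this of each gene directly. CA1 tissue holds neurons, glia, vessels and the blood left in them, and in such bulk samples fewer cells of a type and less RNA per cell cannot be told apart.

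The cohorts differed in level before any question of response. Of 7006 annotated probe sets, 3175 (45.3%) differed between cohort 1 and cohort 2 among SD arrays and 1599 (22.8%) among HC arrays (limma, threshold of 0.05 on the adjusted p). The tenth percentile of signal averaged 31.3 ± 2.95 in SD and 32.5 ± 2.23 in HC arrays of cohort 1 (SD, n = 16 and 5), and 28.4 ± 2.33 in SD and 29.0 ± 2.37 in HC arrays of cohort 2 (SD, n = 20 and 12). GAPDH probe sets at both transcript ends, whose ratio measures RNA integrity, gave a mean 3′ to 5′ ratio of 1.01 in SD and 1.05 in HC arrays of cohort 1, and 1.07 in SD and 1.06 in HC arrays of cohort 2. The summed signal of 10 CA1 and pyramidal neuron markers ranged between 69754 and 88114 in SD and between 75541 and 94792 in HC arrays of cohort 1, and between 56897 and 80777 in SD and between 66961 and 83668 in HC arrays of cohort 2.

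Few probe sets differed in their response to sleep deprivation after correction. The interaction passed an adjusted p of 0.05 in limma for 10 of 7006 probe sets (0.143%), 7 above 0 (0.0999%) and 3 below 0 (0.0428%). The 7 belonged to Psma2, Dync1i2, Msmo1, Pgrmc1, Aadat, Pgam1 and Nrcam, genes of protein turnover, transport, metabolism and adhesion, and the 3 to the β-globin genes Hbb and Hbb-b1 and to the glutathione transferase gene Gstp1. At an unadjusted p under 0.05 there were 565 probe sets (8.06%), 347 above 0 (4.95%) and 218 below 0 (3.11%). The median standard error of the interaction was 0.45 in the lowest quartile of mean signal and 0.12 in the highest, and 8 of the 10 called probe sets lay in that highest quartile. Differences in dim probe sets were therefore less detectable at this number of arrays.

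Taken alone, the 72 hour part of the interaction passed for 9 probe sets (0.128%), all above 0, and the 24 hour part for 0 (0%; 502, or 7.17%, at an unadjusted p under 0.05, smallest adjusted p 0.140 in limma). The genes Psma2, Dync1i2, Msmo1, Pgrmc1 and Aadat passed both at 72 hours and over the 2 durations together. The other 4 probe sets at 72 hours, named after their values were seen, belonged to Ddx46, Fbxo38, Vcp and Phax. For all 10 probe sets called over both durations the 24 hour and 72 hour values had the same sign and lay close together, 0.58 at 24 hours and 0.59 at 72 hours for Psma2, for example, and -0.72 at 24 hours and -0.73 at 72 hours for Hbb-b1. Both values subtract the same HC arrays, and the 10 were chosen by the mean of the 2 durations. Their closeness is therefore not a replication. Whether the durations differed was not tested.

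SD minus HC passed for 48 probe sets in cohort 1 (0.685%), 37 higher (0.528%) and 11 lower (0.157%) in SD. In cohort 2 it passed for 0 (0%, smallest adjusted p 0.121 in limma), although cohort 2 had more arrays. At an unadjusted p under 0.05 the counts were closer, 813 of 7006 in cohort 1 and 731 (10.4%) in cohort 2. Of the 48, 34 (70.8%) had the same sign in cohort 2, against 56.4% of all 7006 probe sets, and 5 of them had an unadjusted p under 0.05 there in the same direction. Their median size was 0.46 in cohort 1, and their median in cohort 2, signed by the direction in cohort 1, was 0.024. The 48 were chosen by their values in cohort 1, and that choice favours a smaller median in cohort 2. In the other direction, the 731 probe sets with an unadjusted p under 0.05 in cohort 2 had a median size of 0.24 there. Their median in cohort 1, signed by the direction in cohort 2, was 0.065, and 65.1% had the same sign. Across all 7006 probe sets the responses of the 2 cohorts, which share no arrays, correlated at 0.13, and at 0.23 across the upper 50% of mean signal. These are correlations across probe sets of the same arrays, given as a description.

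**Figure D1:**
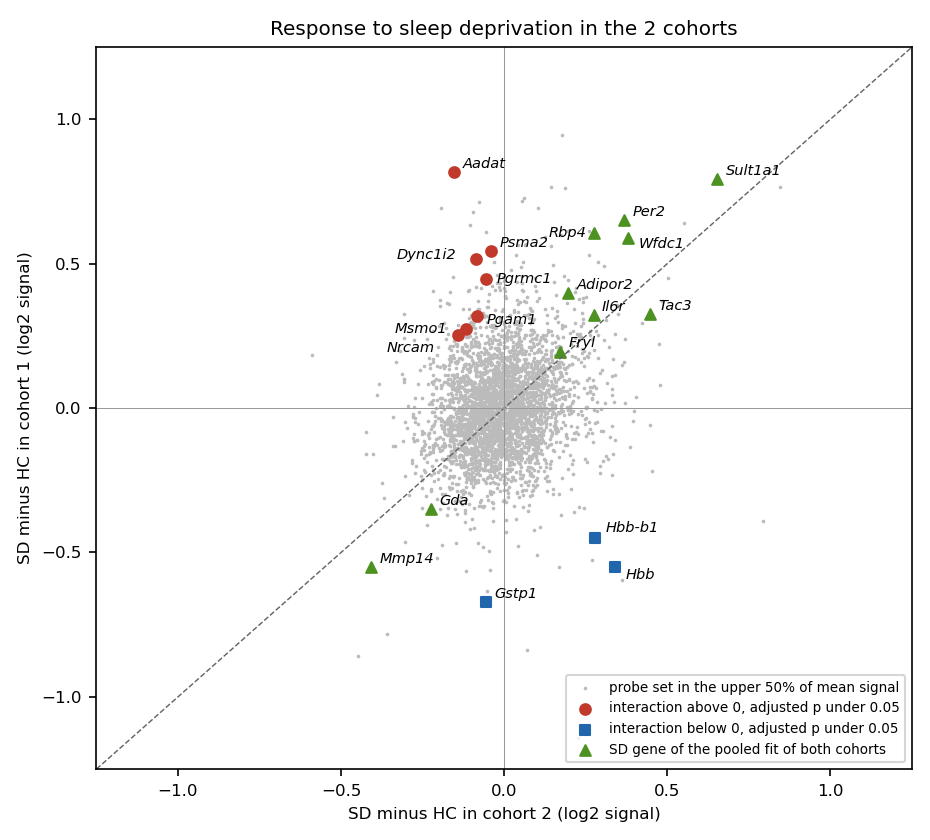
SD minus HC in cohort 1 (vertical) against SD minus HC in cohort 2 (horizontal), both as log2 signal, with grey points for probe sets in the upper 50% of mean signal, of which 1 lies outside the axes, and coloured symbols for named probe sets at any signal; the dashed line marks equal responses. The 7 probe sets called above 0 (red circles) sit high in cohort 1 and just below 0 in cohort 2, Hbb and Hbb-b1 (blue squares) sit in the opposite corner, and the 10 SD genes of the pooled fit (green triangles) lie nearer the line.

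Psma2 encodes an α subunit of the 20S proteasome, the core of the larger complex that degrades ubiquitinated proteins, and had the smallest p of the interaction. Its signal (probe set rc_AI170403_at, chromosome 17) had a lowest, median and highest value of 3539.5, 4565 and 5089 in 24SD and of 3853, 4278 and 5008 in 72SD arrays of cohort 1, against 2801, 3432, 3746, 2407 and 3077 in the 5 HC arrays. In cohort 2 the same values were 4356, 5303 and 5559 in 24SD and 3508, 5111 and 5582 in 72SD arrays, against 4609.5, 5205 and 6097 in HC arrays. Thus 15 of 16 SD arrays of cohort 1 lay above every HC array of that cohort, whereas in cohort 2 SD and HC arrays overlapped, with 0 of 20 SD arrays above the highest HC array and 2 below the lowest. SD minus HC was 0.54 ± 0.086 (SE) in cohort 1 and -0.04 ± 0.062 (SE) in cohort 2, and the interaction was 0.58 ± 0.11 (SE; limma, adjusted p = 0.00809). The NES arrays of cohort 1 ranged between 3464 and 5675, with 14 of 16 above the highest HC array, so that HC was the low group of that cohort.

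Dync1i2 encodes an intermediate chain of cytoplasmic dynein, the motor that carries cargo toward the cell body along microtubules. Its signal (U39044_at, chromosome 3) was 1007, 1132 and 1387 (lowest, median, highest) in 24SD and 985, 1128 and 1369 in 72SD arrays of cohort 1, against 819, 879, 669, 761 and 847 in HC arrays. In cohort 2 it was 1070.4, 1410.3 and 1566 in 24SD and 699.5, 1328 and 1534 in 72SD arrays, against 1256.5, 1395 and 1569.8 in HC arrays. Every one of the 16 SD arrays and of the 16 NES arrays of cohort 1 lay above all 5 HC arrays, and the groups of cohort 2 overlapped. The interaction was 0.60 ± 0.12 (SE; limma, adjusted p = 0.0176), made up of 0.52 ± 0.10 (SE) in cohort 1 and -0.09 ± 0.072 (SE) in cohort 2.

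Msmo1 and Pgrmc1 are linked to sterols: Msmo1 is a demethylating enzyme of cholesterol synthesis, and Pgrmc1 is a heme-binding membrane protein that associates with cytochrome P450 enzymes. Msmo1 signal (rc_AI172293_at, chromosome 16) was 7676, 8763 and 9372 (lowest, median, highest) in 24SD and 8581, 8875 and 9466.5 in 72SD arrays of cohort 1, against 7231, 8391, 7661, 6899 and 6284 in HC arrays. In cohort 2 it was 7986.5, 8388 and 9589 in 24SD and 7593.5, 8635 and 9376 in 72SD arrays, against 7832, 9078 and 12049 in HC arrays. The cohorts had opposite signs: all 16 SD arrays of cohort 1 lay above the mean of their HC arrays, and 18 of 20 SD arrays of cohort 2 lay below the mean of theirs. SD minus HC was 0.27 ± 0.065 (SE) in cohort 1 and -0.12 ± 0.047 (SE) in cohort 2, which did not pass correction on its own, and the interaction was 0.39 ± 0.080 (SE; limma, adjusted p = 0.0176).

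Pgrmc1 signal (rc_AI010357_at, chromosome X) was 2270.5, 3079.6 and 3671 (lowest, median, highest) in 24SD and 2643, 2930.2 and 3309 in 72SD arrays of cohort 1, against 2479.5, 2064.5, 2101, 1856 and 2417 in HC arrays. In cohort 2 it was 2445, 3393 and 3509.7 in 24SD and 2756, 3085 and 3807 in 72SD arrays, against 2854.5, 3341 and 3709.6 in HC arrays. In cohort 1, 15 of 16 SD arrays were above all HC arrays, and in cohort 2, 1 of 20 was above and 3 were below the HC range. The interaction was 0.50 ± 0.10 (SE; limma, adjusted p = 0.0176).

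Aadat encodes the aminotransferase that makes kynurenic acid, an antagonist of glutamate receptors, from the tryptophan metabolite kynurenine. Its signal (Z50144_at, chromosome 16) was 111, 209 and 241.5 (lowest, median, highest) in 24SD and 147, 205 and 263 in 72SD arrays of cohort 1, against 119.7, 103, 127, 136 and 81.8 in HC arrays. In cohort 2 the values were 147, 259 and 308 in 24SD and 157, 242 and 350.4 in 72SD arrays, against 209.8, 254 and 386.5 in HC arrays. SD arrays of cohort 1 exceeded all HC arrays in 15 of 16 cases, and the 24SD array of subject 21 was the exception. The interaction, 0.97 ± 0.20 (SE; limma, adjusted p = 0.0176), had the highest size among the 10.

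Pgam1, a phosphoglycerate mutase of glycolysis, and Nrcam, a cell adhesion molecule of neurons, had smaller interactions of 0.40 ± 0.089 (SE; limma, adjusted p = 0.0340) and 0.39 ± 0.089 (SE; limma, adjusted p = 0.0363). Pgam1 signal (rc_AI169417_s_at, chromosome 1) ranged between 10824 and 15242 in the SD arrays of cohort 1, against 9665, 11116, 13072, 8619 and 10121 in HC arrays, and between 9979.7 and 13311 in SD against 10478 and 13378 in HC arrays of cohort 2. HC replicate 3 of cohort 1, at 13072, lay inside the SD range, and 8 of 16 SD arrays were above it. Nrcam signal (U81037_at, chromosome 6) ranged between 4904 and 6988 in the SD arrays of cohort 1, against 5102, 4947, 4945, 4921 and 5494 in HC arrays, and between 4608 and 7022 in SD against 5982 and 7541 in HC arrays of cohort 2. In cohort 2, 18 of 20 SD arrays lay below the HC mean for Nrcam, and the response there was -0.14 ± 0.052 (SE), against 0.25 ± 0.072 (SE) in cohort 1; neither passed correction alone.

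The interaction equals the cohort difference in SD arrays minus that in HC arrays, and so does not fix which of them is larger. For these 7 genes the gap between the cohorts was narrower in SD than in HC arrays. Cohort 1 minus cohort 2 was -0.19 in SD and -0.77 in HC arrays for Psma2, -0.22 in SD and -0.82 in HC arrays for Dync1i2, and -0.32 in SD and -1.29 in HC arrays for Aadat. In SD arrays the difference lay between -0.32 and 0.14 over the 7. All 7 HC differences passed in limma, with adjusted p between 1.80e-08 and 0.00784. The 3 called below 0 were unlike in this. The difference was -0.54 in SD and 0.07 in HC arrays for Gstp1, -0.52 in SD and 0.37 in HC arrays for Hbb, and -0.30 in SD and 0.43 in HC arrays for Hbb-b1.

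**Figure D2:**
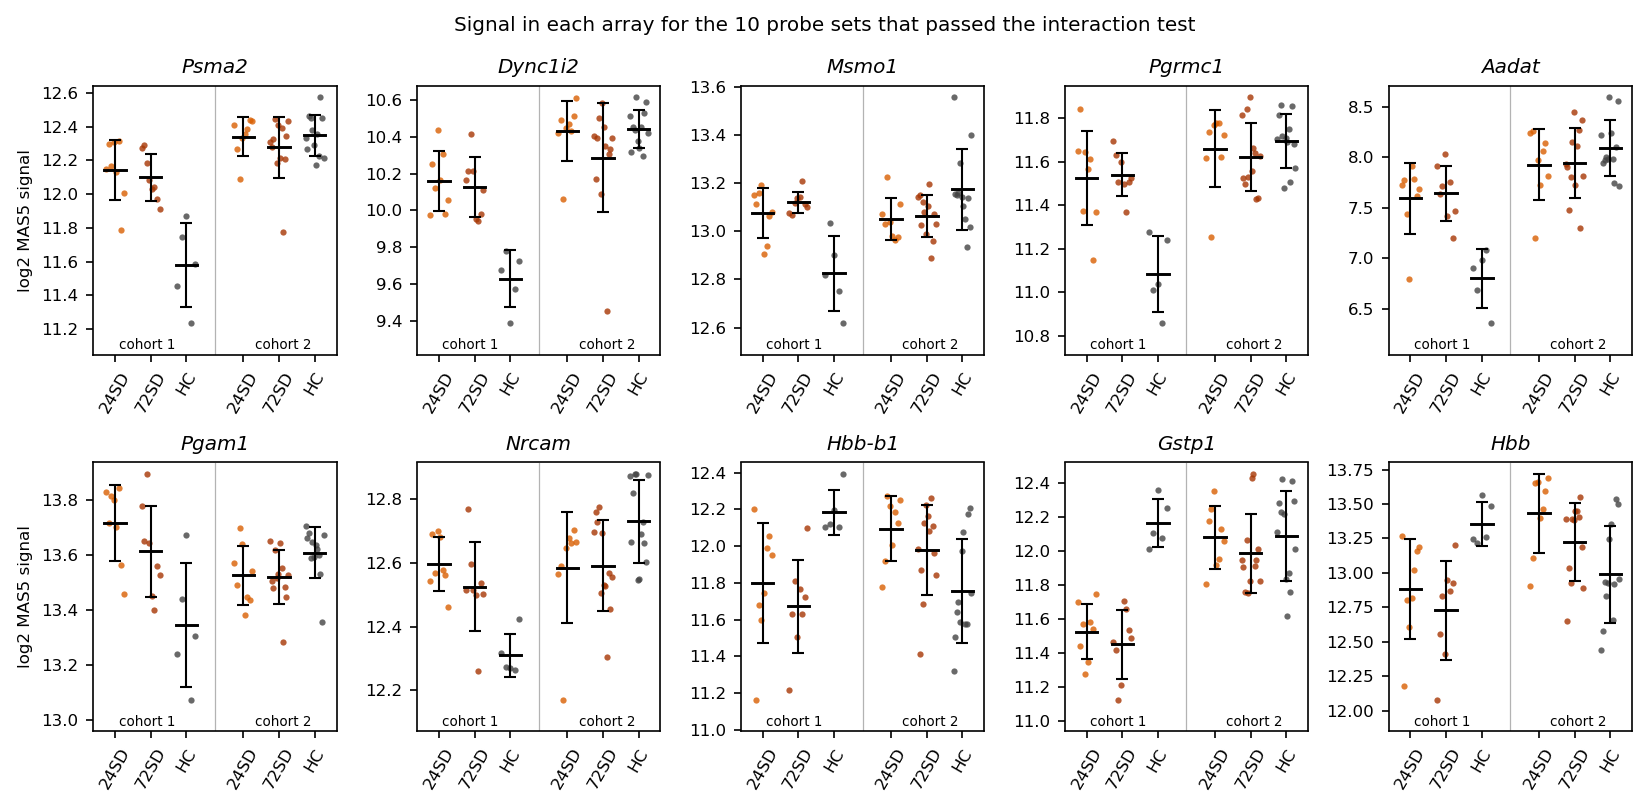
Log2 MAS5 signal of each array for the 10 called probe sets, with 24SD, 72SD and HC of cohort 1 on the left and of cohort 2 on the right of each panel; points are animals, bars the mean and SD. In cohort 1 at least 14 of 16 SD arrays lie outside the range of the 5 HC arrays in every panel except Pgam1 (8 of 16), and in cohort 2 SD and HC overlap in every panel.

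Gstp1 encodes the π class glutathione S-transferase, which conjugates electrophiles and oxidized products to glutathione, and in brain is found mainly in glia. Its signal (X02904cds_s_at, chromosome 1) was 2481, 3009.5 and 3434.5 (lowest, median, highest) in 24SD and 2233, 2849 and 3341 in 72SD arrays of cohort 1, against 4127, 4409, 5254, 4322 and 4875 in HC arrays. In cohort 2 it was 3579, 4366 and 5230.4 in 24SD and 3449.7, 3899 and 5601 in 72SD arrays, against 3143, 4588 and 5483 in HC arrays. All 16 SD arrays and all 16 NES arrays of cohort 1 were below every HC array, and no SD array of cohort 2 was below the HC range. SD minus HC was -0.67 ± 0.11 (SE) in cohort 1, which passed alone (limma, adjusted p = 0.000424), and -0.06 ± 0.080 (SE) in cohort 2, and the interaction was -0.62 ± 0.14 (SE; limma, adjusted p = 0.0340).

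Hbb and Hbb-b1 encode β chains of adult hemoglobin and are expressed at high level in red cells, with low expression also known in neurons and glia. Hbb signal (M94918mRNA_f_at) was 4644, 7754 and 9882 (lowest, median, highest) in 24SD and 4326, 7394 and 9422.5 in 72SD arrays of cohort 1, against 9702, 9540.3, 12091, 9823 and 11491 in HC arrays. In cohort 2 it was 7677, 11817 and 13174 in 24SD and 6418, 10713 and 11991.5 in 72SD arrays, against 5559.9, 7792 and 11859 in HC arrays. The signs were opposite, with 15 of 16 SD arrays of cohort 1 below the HC range and 5 of 20 SD arrays of cohort 2 above it. SD minus HC was -0.55 ± 0.16 (SE) in cohort 1 and 0.34 ± 0.12 (SE) in cohort 2, neither past correction alone, and the interaction was -0.89 ± 0.20 (SE; limma, adjusted p = 0.0363).

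Hbb-b1 had the same pattern, with 15 of 16 SD arrays of cohort 1 below the HC range and 5 of 20 SD arrays of cohort 2 above it. Its signal (M94919mRNA_f_at) was 2291, 3699.8 and 4717 (lowest, median, highest) in 24SD and 2382, 3275 and 4393 in 72SD arrays of cohort 1, against 4408, 4454, 4691, 4409 and 5383 in HC arrays. In cohort 2 it was 3509, 4572 and 4949 in 24SD and 2727, 4195 and 4912 in 72SD arrays, against 2555, 3255 and 4731 in HC arrays. SD minus HC was -0.45 ± 0.13 (SE) in cohort 1 and 0.28 ± 0.094 (SE) in cohort 2, with an interaction of -0.73 ± 0.16 (SE; limma, adjusted p = 0.0340). Both are family probe sets, whose probes can match several β-globin copies, so the 2 values are not independent and cannot be assigned to 1 gene each.

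The 2 genes lie on the same strand of chromosome 1, and the 150 bases before each annotated start (RefSeq, GRCr8) are shown because both probe sets passed with the same sign and because globin promoters are well described. Capitals mark 3 motifs searched on both strands. These are the motif CACCC, the CCAAT box and the motif ATAAA as a TATA-like element, where CCAAT on the other strand appears reversed and complemented. The windows are chr1:167663722-167663871 for Hbb and chr1:167643521-167643670 for Hbb-b1, both on the minus strand.
Hbb: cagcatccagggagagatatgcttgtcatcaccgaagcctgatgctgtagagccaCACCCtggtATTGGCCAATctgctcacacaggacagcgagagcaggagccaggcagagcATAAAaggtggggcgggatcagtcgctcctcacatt
Hbb-b1: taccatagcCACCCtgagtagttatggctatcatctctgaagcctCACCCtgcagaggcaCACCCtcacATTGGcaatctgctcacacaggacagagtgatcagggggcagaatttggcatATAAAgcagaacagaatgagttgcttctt
The windows were identical at 106 of 156 aligned positions (67.9%), and both held all 3 motifs. CACCC occurred once in Hbb and 3 times in Hbb-b1, and CCAAT 2 times in Hbb, on opposite strands and side by side, and once in Hbb-b1. Over all 33469 promoter windows of this length, 35.2% held CACCC, 23.5% CCAAT and 25.7% ATAAA, so that each motif alone is common.

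The other blood markers did not pass. Alas2, the erythroid enzyme that starts heme synthesis, had an interaction of -0.37 ± 0.17 (SE; limma, unadjusted p = 0.0332, adjusted p = 0.553), with -0.28 in cohort 1 and 0.09 in cohort 2. Of 10 blood markers, Hbb and Hbb-b1 included, 8 were below 0, 3 of them at an unadjusted p under 0.05. Hbb and Hbb-b1 were 2 of these 3, so the count in part restates their calls. The median interaction of the 10 was -0.24, against 0.0085 over all 4736 genes. Of all genes, 3.17% were below 0 at an unadjusted p under 0.05. The embryonic globin Hbe1 had 0.34 ± 0.25 (SE), and the α-globin Hba-a3 0.29 ± 0.48 (SE), with unadjusted p of 0.188 and 0.547 in limma. Both were dim, with mean signals of 222 and 70.9, against 8712 for Hbb. Hbe2, at a mean signal of 754, had -0.23 ± 0.27 (SE). Of 7 globin probe sets 4 were below 0, Hbb and Hbb-b1 included. The summed signal of the 10 blood markers, Hbb and Hbb-b1 among them, had a lowest, median and highest value of 10004, 13909 and 18002 in SD arrays of cohort 1, against 17660, 18177 and 20025 in HC arrays, and of 11574, 18469 and 20762 in SD arrays of cohort 2, against 10891, 14023 and 19669 in HC arrays. Its part in the other interactions was not tested.

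Of the 10 called genes, 5 have further probe sets on the array, 7 in all, and none of these passed. Over the 7 the sign was the same as in the called probe set in 4, and 0 had an unadjusted p under 0.05 in that direction. Psma2 had 0.04 ± 0.13 (SE) and -0.01 ± 0.092 (SE) at its other probe sets. Aadat had -0.04 ± 0.21 (SE) at its second probe set, which shares the source sequence of the called one. Pgam1 had -0.14 ± 0.082 (SE) and 0.03 ± 0.089 (SE) at its other probe sets. Msmo1 had 0.12 ± 0.12 (SE), and Gstp1 had -0.34 ± 0.21 (SE). Dync1i2, Pgrmc1, Nrcam, Hbb and Hbb-b1 have no other annotated probe set here. As a background, the 2 brightest probe sets of the same gene had the same sign of interaction in 62.3% of 740 genes where both lay in the upper 50% of signal (correlation 0.26), in 61.1% for SD minus HC in cohort 1 (0.28) and in 68.1% in cohort 2 (0.51).

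**Figure D3:**
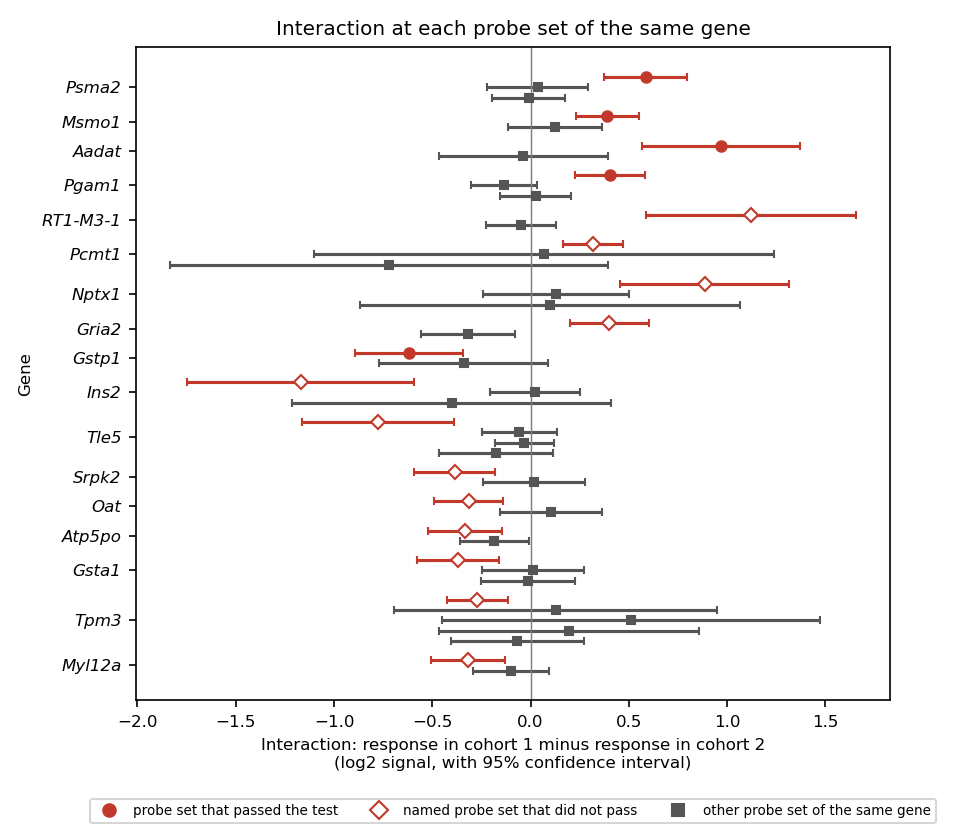
Interaction (horizontal, log2 signal, with 95% confidence interval) at each annotated probe set of the genes named for the smallest p of the interaction, 12 above and 12 below 0, where a gene has more than 1 probe set. Red symbols are the probe sets by which the genes were named, filled where they passed the test, and grey squares are the other probe sets of the same gene. The intervals of most grey squares include 0, and Gria2 has 1 probe set on each side of 0.

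Below the threshold, the next probe sets above 0 belonged to Suox (sulfite oxidase, 0.37 ± 0.086), RT1-M3-1 (a nonclassical class I histocompatibility gene, 1.12 ± 0.27), Pcmt1 (a protein repair methyltransferase, 0.32 ± 0.076), Nptx1 (a pentraxin that clusters glutamate receptors, 0.89 ± 0.21) and Gria2 (a subunit of AMPA glutamate receptors, 0.40 ± 0.10; SE), with limma adjusted p between 0.0513 and 0.0924. RT1-M3-1 had 1.33 ± 0.22 (SE) in cohort 1, which passed alone (limma, adjusted p = 0.000424), and 0.21 ± 0.15 (SE) in cohort 2. Its signal was 46.7, 42.3, 149.5, 40.6 and 95.9 in HC arrays of cohort 1, and between 115.2 and 231 in SD arrays there. Of these 16 SD arrays, 13 lay above every HC array. The lowest HC signals were dim and the HC values widely spread, so the size of this difference is uncertain. The other probe set of RT1-M3-1, brighter at a mean log2 signal of 11.3 against 7.3, had an interaction of -0.05 ± 0.088 (SE). Gria2 had -0.32 ± 0.12 (SE; limma, unadjusted p = 0.0104) at its second probe set, opposite to the 0.40 of the first.

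The next 9 below 0 were Ins2, Tle5, Srpk2, Cx3cr1, Oat, Atp5po, Gsta1, Tpm3 and Myl12a, with limma adjusted p between 0.0822 and 0.186. Cx3cr1, the fractalkine receptor by which microglia sense neurons, had -0.51 ± 0.14 (SE), with -0.42 ± 0.11 (SE) in cohort 1 and 0.09 ± 0.080 (SE) in cohort 2, and 10 of 16 SD arrays of cohort 1 lay below all HC arrays. Srpk2, a kinase of splicing factors, and Tle5, a short corepressor of the Groucho family, fell in cohort 1 by 0.47 and 0.80 on the log2 scale (limma, adjusted p = 0.00162 and 0.00424) and had -0.08 and -0.03 in cohort 2, and their other probe sets, 1 and 3, had interactions between -0.18 and 0.02. Ins2 was named at a family probe set that insulin gene copies can share, whose signal lay between 20.5 and 41.7 in SD arrays of cohort 1 and between 20.9 and 36.4 in HC arrays of cohort 2, close to the tenth percentile of the arrays, so no size of difference is given for it.

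The 10 genes that passed an additive SD test over both cohorts in earlier work on these arrays did not pass the interaction. At the named probe sets none had an interaction p under 0.05, and all 10 had the same direction in both cohorts, a direction that their choice favours. Some other probe sets of these genes did not. Adipor2 had an interaction of -0.23 ± 0.11 (SE, limma, unadjusted p = 0.0387) at rc_AA859796_at, with -0.22 in cohort 1 and 0.02 in cohort 2. Rbp4 had -0.06 in cohort 1 and 0.17 in cohort 2 at K03045cds_s_at, and Gda -0.13 and 0.60 at U03629_at. Further probe sets of Rbp4, Gda and Sult1a1 had the same direction in both cohorts. Per2, a negative regulator of the circadian clock, had 0.65 ± 0.12 (SE) in cohort 1 and 0.37 ± 0.084 (SE) in cohort 2. Its interaction was 0.28, with a 95% interval between -0.01 and 0.57 (limma, unadjusted p = 0.0547). Rbp4, the carrier of retinol, had 0.61 ± 0.15 (SE) in cohort 1 and 0.28 ± 0.11 (SE) in cohort 2, with an interval of the interaction between -0.04 and 0.70. For Adipor2, an adiponectin receptor, the interval lay between -0.02 and 0.42, for Sult1a1, a phenol sulfotransferase, between -0.48 and 0.76, and for Mmp14, a membrane-bound metalloprotease, between -0.50 and 0.22. Fryl had the narrowest, between -0.14 and 0.19. In all 10 genes the interval reached beyond the size of the cohort 2 response itself.

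Gene lists were described by the brightest probe set of each gene, and over all 4736 genes 51.4% lay above 0 and 8.23% had an unadjusted p under 0.05. Among 22 activity-induced immediate early genes, transcription factors and effectors switched on by synaptic activity, 19 lay above 0, 3 of them at an unadjusted p under 0.05 (5.07% of all genes), with a median interaction of 0.12. The median of SD minus HC was -0.01 in cohort 1 and -0.17 in cohort 2, where 7 of the 22 were lower at an unadjusted p under 0.05 (7.07% of all genes) and 0 higher (3.80%). In cohort 1, 2 were higher and 2 lower at that p (5.51% and 5.53% of all genes). Nr4a3, an orphan nuclear receptor, had 0.11 ± 0.11 (SE) in cohort 1 and -0.22 ± 0.078 (SE) in cohort 2. Ptgs2, the inducible cyclooxygenase, had 0.76 ± 0.21 (SE) in cohort 1 and 0.14 ± 0.15 (SE) in cohort 2, and Dusp6, a phosphatase of ERK, 0.37 ± 0.10 (SE) in cohort 1 and 0.10 ± 0.072 (SE) in cohort 2. No gene of the list passed correction in the interaction.

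Among 18 heat shock proteins, 11 were above 0 and 5 of these had an unadjusted p under 0.05 (5.07% of all genes), with 0 below at that p (3.17%). They were Hsf1, the transcription factor of the heat shock response, Hmox1, heme oxygenase, the cochaperones Dnaja1 and Dnajb1, and Hspe1, the mitochondrial chaperonin partner. Hmox1 had 0.37 ± 0.14 (SE) in cohort 1 and -0.05 ± 0.10 (SE) in cohort 2, and a single HC array of cohort 1, at a signal of 264, lay below the other 4, whose highest value was 707. Of the list, 7 genes were higher in SD in cohort 1 at an unadjusted p under 0.05 (5.51% of all genes) and 1 in cohort 2 (3.80%).

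Among 24 neuropeptides and granins, 17 were above 0, 3 of them at an unadjusted p under 0.05 (5.07% of all genes). At that p 1 was below 0 (3.17% of all genes). Scg2, a granin of dense core vesicles, had 0.41 ± 0.11 (SE) in cohort 1 and -0.11 ± 0.082 (SE) in cohort 2, and an interaction of 0.52 ± 0.14 (SE; limma, adjusted p = 0.130). Crh and Chgb were also above 0 at an unadjusted p under 0.05, with 0.36 ± 0.15 (SE) and 0.24 ± 0.11 (SE), and Gal was below 0, with -0.97 ± 0.45 (SE), at a low signal. Of 16 cholesterol synthesis genes 11 were above 0, and apart from Msmo1 none had an unadjusted p under 0.05. In that list 5 of 16 were lower in SD at an unadjusted p under 0.05 in cohort 2 (7.07% of all genes) and 1 in cohort 1 (5.53%). The medians were -0.01 in cohort 1 and -0.11 in cohort 2.

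Of 44 cytosolic ribosomal protein genes 28 were below 0 (median -0.07). At an unadjusted p under 0.05, 4 were above 0 (5.07% of all genes) and 3 below 0 (3.17%). In this list 9 were higher in SD in cohort 2 at an unadjusted p under 0.05 (3.80% of all genes) and 3 in cohort 1 (5.51%). Of 54 oxidative phosphorylation genes 35 were below 0 (median -0.02), and 2 above 0 and 3 below 0 had an unadjusted p under 0.05, against 5.07% above and 3.17% below over all genes. Of 27 proteasome genes 16 were below 0, with a median of -0.05. Besides Psma2 only Psma4 (0.18 ± 0.080 SE) and Psma7 (-0.19 ± 0.091 SE) had an unadjusted p under 0.05. That made 2 above 0 (5.07% of all genes) and 1 below (3.17%).

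Neuronal markers had a median of 0.14 (6 of 11 above 0), and 2 were above 0 at an unadjusted p under 0.05 (5.07% of all genes). Map2, the dendritic microtubule protein, had an interaction of 0.28 ± 0.084 (SE). It was higher in SD in cohort 1 (0.28 ± 0.068 SE, limma, adjusted p = 0.0310), against 0.0014 ± 0.049 (SE) in cohort 2. Astrocyte markers had a median of 0.04, oligodendrocyte and myelin markers 0.03, inhibitory neuron markers 0.02 and microglia and immune markers -0.07. Besides Cx3cr1 only Cd53, a leukocyte tetraspanin, among the 18 microglia and immune markers had an unadjusted p under 0.05, with -0.42 ± 0.20 (SE). Both were below 0, as were 3.17% of all genes at that p. The defining microglial markers Csf1r, Aif1 and C1qb had interactions of 0.67, -0.12 and -0.13 with unadjusted p of 0.0928, 0.457 and 0.259.

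**Figure D4:**
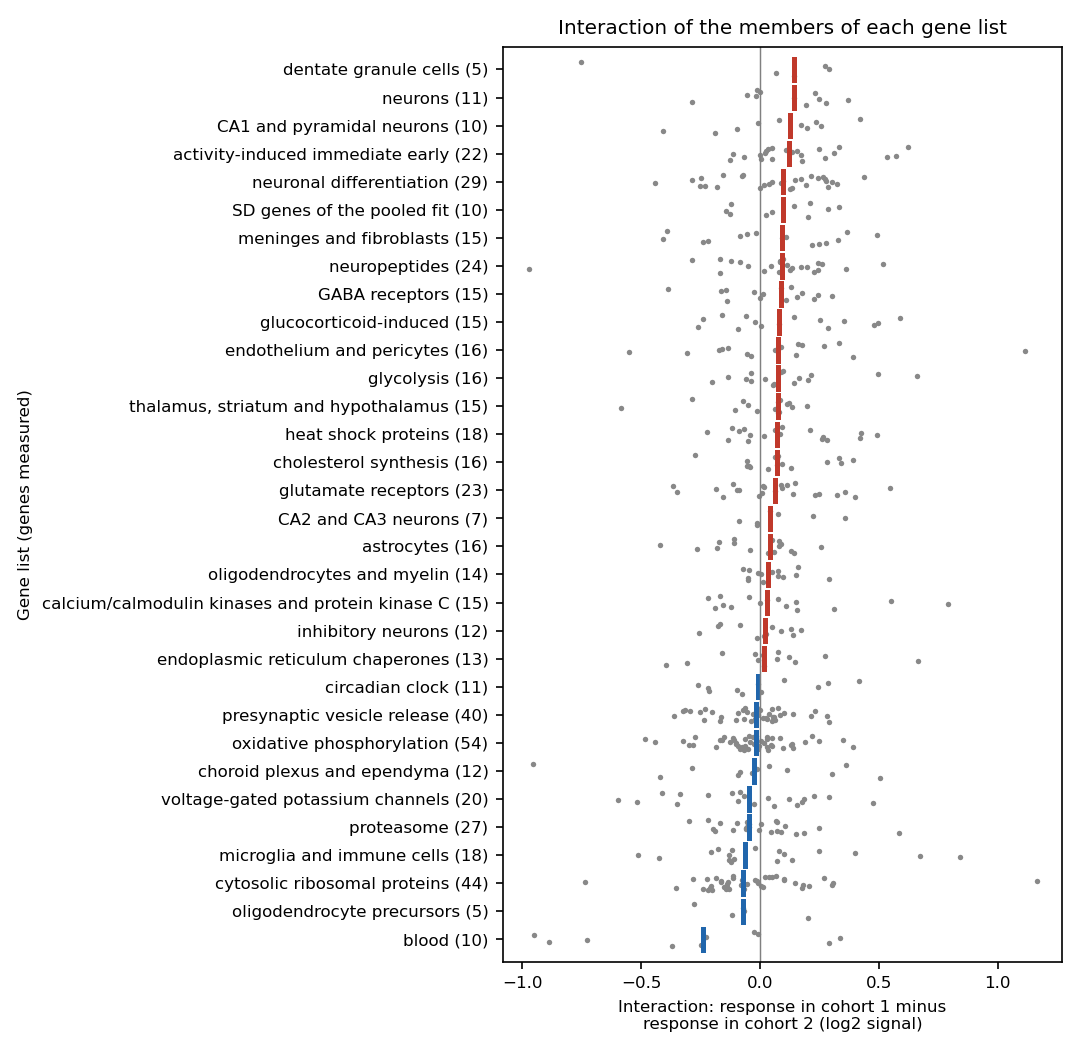
Interaction (horizontal, log2 signal) of the genes of each list, as grey points for the brightest probe set of each gene and a coloured bar for the median; lists are ordered by median, with the number of genes measured in parentheses. Medians lie between -0.24 for blood, which includes the called Hbb and Hbb-b1, and 0.14 for dentate granule cells and neurons. Members of most lists fall on both sides of 0.

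Leaving out single arrays showed where the calls rested. Without 1 of the 5 HC arrays of cohort 1 the number of called probe sets was 7, 4, 12, 0 (521 at an unadjusted p under 0.05 in limma) and 4 for replicates 1 to 5. Without any 1 of the other 48 arrays, of which 47 were left out as alternatives added after the data were seen, it lay between 5 and 15, with a median of 10. Counts of 5 were reached without the 24SD array of subject 21 of cohort 1 and without HC replicate 6, 13 or 17 of cohort 2, and the count of 15 without the 72SD array of subject 54 or HC replicate 11 of cohort 2. The estimates of the 10 kept their signs when the 5 HC arrays were left out in turn, but they moved. Psma2 lay between 0.50 and 0.66, Aadat between 0.86 and 1.04, Pgam1 between 0.34 and 0.49, Msmo1 between 0.34 and 0.44 and Hbb between -0.92 and -0.84. The Hbb, Hbb-b1 and Nrcam calls were lost without any 1 of the 5 HC arrays of cohort 1 (limma, adjusted p between 0.0501 and 0.109). Over the same 5 leave-outs the Pgam1 and Gstp1 calls held in 1, Aadat in 2, and Dync1i2, Msmo1 and Pgrmc1 in 3. The Psma2 call was lost only without HC replicate 4 (limma, adjusted p = 0.0753).

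**Figure D5:**
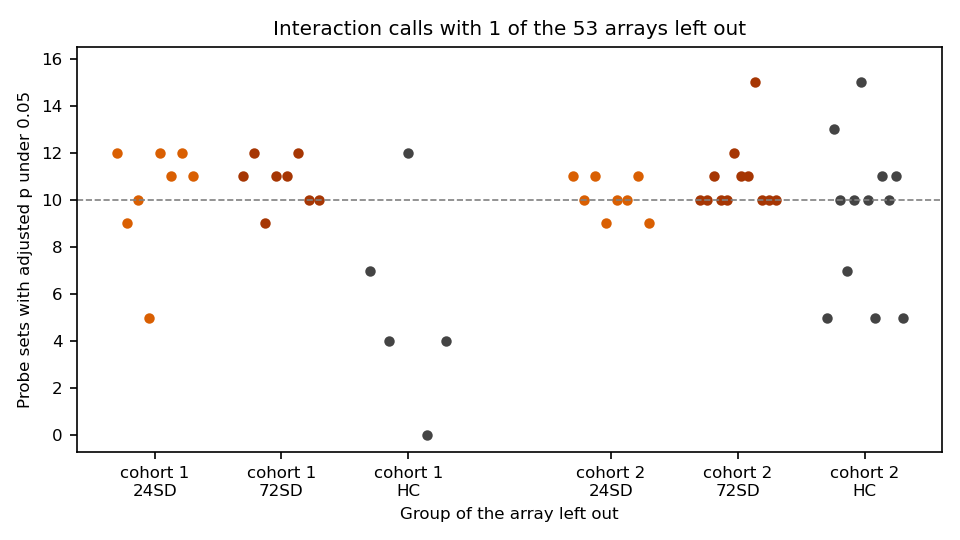
Number of probe sets past an adjusted p of 0.05 in the interaction (vertical) when 1 of the 53 arrays is left out, with 1 point per array, by the group of the array left out; the dashed line marks the 10 of the full set. The lowest count, 0, comes from an HC array of cohort 1, and most other points lie between 9 and 12.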

How the data were processed

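CA1 RNA was measured on Affymetrix rat arrays, and the authors deposited linear intensity values from the MAS5 algorithm, 1 signal per probe set, its version not given in the sources used here, each array scaled as a whole; they are neither log transformed nor standardized within cohort. Of 8799 probe sets, 59 controls, 308 with several gene symbols and 1426 with none were left out, which gave 7006 for 4736 symbols, and 99.7% matched RefSeq by gene number. Signals were set to at least 1 and log2 transformed. The 53 arrays were fitted with limma 3.58.1 in R 4.3.3 (1 mean per cohort and group, eBayes, Benjamini-Hochberg over 7006); figures used Python 3.11.15 and matplotlib 3.10.9. The code was tested on simulated data. Members and gene lists were chosen with earlier results of these data known. Named genes were the 12 above and 12 below 0 with the smallest interaction p, the 10 genes of the additive SD test, their other probe sets, and list members with the smallest p; others are said to be named after their values were seen, and the further list members and markers given were chosen likewise. The number of arrays limits the precision. The alternatives tried were scaling, floor, signal filter, all probe sets, trend and robust eBayes, array weights, standardization within cohort, all 69 arrays, the GAPDH ratio and left-out arrays. Detection calls and scanner readings were not used here.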

Additional observations from a re-analysis of the deposited data

Results flagged for a closer look

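The response differed between the cohorts, by the test of the difference itself, for the probe sets of Psma2 (0.58), Dync1i2 (0.60), Msmo1 (0.39), Pgrmc1 (0.50), Aadat (0.97), Pgam1 (0.40) and Nrcam (0.39), where cohort 1 was the more positive, and for those of Hbb-b1 (-0.73), Gstp1 (-0.62) and Hbb (-0.89), where it was the more negative, on the log2 scale.

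In 6 of 136 groups of 4 to 10 arrays examined over 34 named probe sets, 1 array stood far from the others of its group, and chance gives about 1 in 20. The 24SD array of subject 30 in cohort 2 was the low one in 3 of the 6, for Dync1i2 (1070.4 against 1372 for the next array, a gap of 0.652 of the group's range), Pgrmc1 (2445 against 3141, 0.693) and Nrcam (4608 against 6065, 0.743). Without that array 11 probe sets were called. The array had a GAPDH 3′ to 5′ ratio of 1.18, the highest of its group, whose mean was 1.06. A link between this ratio and the low signals was not tested. In the 24SD group of cohort 1, Aadat was low in subject 21 (111 against 173, 0.573) and RT1-M3-1 low in subject 23 (119 against 158, 0.528). In the 72SD group of cohort 1, Tle5 was low in subject 40 (174 against 276, 0.716).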

How the results depend on the processing

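The interaction passed for 10 probe sets, and for 16 with every probe set other than controls tested, for 3 with all 69 arrays in the fit and for 0 (556 at an unadjusted p under 0.05) on signals standardized within cohort. It was called above 0 in 70% of the 10, in 57.1% of 7 after median centring and in 63.6% of 11 after quantile normalization; at an unadjusted p under 0.05 the share above 0 was 61.4%, 48.1% and 55.2%, so the excess of positive interactions depends on the scaling. At 72 hours alone 9 passed, with 5 after quantile normalization, 5 with the GAPDH ratio as a covariate, 16 in the upper 50% of signal, and 0 after median centring, with array weights, after standardization and with all 69 arrays (524, 517, 521 and 458 at an unadjusted p under 0.05). At 24 hours 1 passed in the upper 50% of signal with 1 probe set per gene. SD minus HC in cohort 1 passed for 0 after standardization (796 unadjusted), and in cohort 2 for 1 with a floor of 50. With each of the 53 arrays left out in turn the count for the interaction lay between 0 and 15. The other counts were recomputed in 6 leave-outs, those of the 5 HC arrays of cohort 1 and of the 24SD array of subject 30 of cohort 2, and lay between 0 and 2 at 24 hours, 0 and 14 at 72 hours, 16 and 59 for cohort 1 and 0 and 4 for cohort 2. Cohort 1 had 27, 26 and 16 calls without its HC replicates 1, 2 and 4, and cohort 2 had 4 without the 24SD array of subject 30 and 0 in the other 5 leave-outs run for it. At 72 hours the count was 0, 4, 14, 0 and 5 without HC replicates 1 to 5 of cohort 1. With single arrays left out the interaction lay between -0.0099 and 0.055 for Fryl and between -0.043 and 0.11 for Il6r, below 0 only without HC replicate 4 (Fryl) or 3 (Il6r) of cohort 1. Signs also turned for Fryl (-0.00074 after median centring), Tac3 (0.12 on standardized signals) and Klk6 (-0.26 on standardized signals), none of them called. With the GAPDH ratio as a covariate 8 probe sets passed, all above 0, with Suox (0.40, limma adjusted p = 0.0274) and RT1-M3-1 (1.23, 0.0274) among them. Nrcam (0.37, 0.0699), Hbb (-0.83, limma adjusted p = 0.0699), Hbb-b1 (-0.68, 0.0649) and Gstp1 (-0.61, 0.0523) did not. The cause of these changes was not tested. No paired analysis was possible because the animal numbers are unique across groups.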
